A study of Rattus norvegicus with 6 samples.

Results

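Immediate early and stress response genes were followed in the corneal epithelium of rats 16 weeks after streptozotocin (STZ), a toxin of the insulin-producing beta cells. The 39 genes were listed by name, and each was read from the protein-coding row of highest mean FPKM that carries the name, or from its highest row where none is typed as coding. All 39 were found, on 48 of the 61453 loci of the tables, and 32 of them had a mean of at least 0.5 FPKM and were tested among 42551 loci. FPKM is a count of fragments scaled by the length of the locus and by the size of the library.

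The diabetic group (3 libraries) came from male Brown Norway rats of 150 to 200 g given a single intraperitoneal injection of STZ at 50 mg/kg, with blood glucose above 16.67 mmol/l. The normal group (3 libraries) came from rats of the same strain and sex injected with citrate buffer alone. Neither group carried a transgene, and the epithelium was scraped off with a blade. The methods name 6 rats in all and 6 corneas per group, but not how these were divided among the libraries, so the spread between libraries may be partly technical, and p-values measure only that spread. In such bulk RNA, fewer cells of a type and less RNA per cell cannot be told apart.

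Immediate early genes are transcribed within minutes of a stimulus from promoters that hold bound transcription factors in wait, and they need no new protein synthesis. Growth factors, osmotic change, wounding and handling of the tissue all reach them through MAP kinases, through serum response factor (SRF) on CArG boxes and through CREB on cyclic AMP response elements (CRE). Their transcripts are short-lived. Inducible proteins such as Zfp36 and phosphatases such as Dusp1 belong to the same set and shut the response down. In the corneal epithelium, Egr1 and the AP-1 factors of the Fos and Jun families are known as early responders to abrasion.

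Promoters of *Egr1*, *Btg2*, *Dusp1* and *Dusp5* are printed because these genes stand for the ways in which the members behaved in the libraries. *Egr1* and *Btg2* spanned the widest range, *Dusp1* was among the most abundant of the variable members, and *Dusp5* carries the same kind of site as *Egr1* but varied little. The sequences are the 250 bases before the start of the gene, from RefSeq, and capitals mark CArG boxes or CRE sites found by search.
Egr1 promoter, GRCr8, chr18:26736828-26737077, plus strand: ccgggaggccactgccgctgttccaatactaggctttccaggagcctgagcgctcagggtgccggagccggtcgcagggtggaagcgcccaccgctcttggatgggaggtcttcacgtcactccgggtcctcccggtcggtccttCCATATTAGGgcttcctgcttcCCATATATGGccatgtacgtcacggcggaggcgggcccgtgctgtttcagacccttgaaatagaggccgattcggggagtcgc
Btg2 promoter, GRCr8, chr13:48087691-48087940, minus strand: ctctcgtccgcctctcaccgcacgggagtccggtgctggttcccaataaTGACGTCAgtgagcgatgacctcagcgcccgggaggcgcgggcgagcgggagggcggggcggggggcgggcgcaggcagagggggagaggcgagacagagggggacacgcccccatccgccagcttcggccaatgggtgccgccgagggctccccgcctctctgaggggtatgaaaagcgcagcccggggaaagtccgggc
Dusp1 promoter, GRCr8, chr10:17184603-17184852, plus strand: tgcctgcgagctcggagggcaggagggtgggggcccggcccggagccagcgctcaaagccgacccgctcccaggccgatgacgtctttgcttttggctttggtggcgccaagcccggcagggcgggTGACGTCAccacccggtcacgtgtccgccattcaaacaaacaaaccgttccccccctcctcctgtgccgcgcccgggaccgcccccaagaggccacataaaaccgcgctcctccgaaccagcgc
Dusp5 promoter, GRCr8, chr1:262543524-262543773, plus strand: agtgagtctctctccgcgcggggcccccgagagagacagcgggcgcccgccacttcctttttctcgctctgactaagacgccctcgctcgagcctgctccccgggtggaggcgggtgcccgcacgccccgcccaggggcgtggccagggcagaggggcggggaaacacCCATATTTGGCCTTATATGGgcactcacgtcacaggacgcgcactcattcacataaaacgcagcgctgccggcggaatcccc
Promoters of 26 of the 39 members were matched by symbol. The CArG box was searched as CC, then 6 bases of A or T, then GG, and the CRE as TGACGTCA, both on either strand. A CArG box stood in 5 of the 26 (*Dusp5*, *Egr1*, *Egr2*, *Klf6* and *Zfp36*) and in 1.5% of 27457 rat promoters of the same length. *Egr1* and *Dusp5* held 2 each. A CRE stood in 6 of the 26 (*Btg2*, *Dusp1*, *Ier2*, *Jund*, *Maff* and *Ppp1r15a*) and in 1.7% of all promoters. The AP-1 site TGACTCA was found in 0 of the 26 windows and in 3.98% of all. The EGR site, searched as GCGTGGGCG or GCGGGGGCG, was found in 7 of the 26 (*Dusp2*, *Fosl2*, *Jund*, *Maff*, *Nr4a1*, *Sik1* and *Zfp36*) and in 2.94% of all. No 2 of these motifs overlapped in a member promoter. A match of letters describes the sequence and is not a measured site.

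The libraries held 87040253, 62288901 and 64263130 counts in diabetic replicates 1 to 3, against 78980853, 76500184 and 81139312 in normal replicates 1 to 3, and a count of 0 allows up to 0.0345 to 0.0482 CPM (counts scaled to a common library size), for counting error only. The labelled tissue was borne out by its markers, since *Aldh3a1*, the corneal crystallin enzyme, was at 10326, 9245 and 9321 FPKM in diabetic and 9143, 9597 and 9171 FPKM in normal libraries and *Krt12*, the corneal keratin, at 4455, 4045 and 3858 FPKM in diabetic and 4223, 3964 and 3660 FPKM in normal libraries, while the 8 lymphocyte markers summed to 0.126 to 0.362 FPKM in diabetic and 0.157 to 0.721 FPKM in normal libraries, with *Cd3d*, *Cd79a* and *Nkg7* at 0 in all 6. The 6 neutrophil markers summed to 1.81 to 3.32 FPKM in diabetic and 1.42 to 2.11 FPKM in normal libraries, mostly from *Ngp*, with *Elane* at 0 in all 6 and *S100a9* at 0.235, 0.637 and 0.964 FPKM in diabetic libraries and 0 in normal ones. The 8 markers of corneal epithelium summed to 15650 to 17360 FPKM in diabetic and 15630 to 16040 FPKM in normal libraries. The central epithelium was not alone: 7 markers of conjunctiva and limbus summed to 1409, 1478 and 773 FPKM in diabetic and 1423, 1639 and 1079 FPKM in normal libraries, *Krt13* being the most abundant. The 14 lens markers summed to 162, 1410 and 3.62 FPKM in diabetic and 406, 118 and 164 FPKM in normal libraries, and *Kera* of the stromal keratocytes was at 162 to 278 FPKM in diabetic and 258 to 284 FPKM in normal libraries. Diabetic replicate 1 stood apart from the other diabetic libraries in the genes described here, so results are given with and without it. Over all loci tested, on quantile-normalized log2 values, it correlated at 0.915, 0.914 and 0.908 with normal replicates 1 to 3. With diabetic replicates 2 and 3 it correlated at 0.896 and 0.888, while those 2 correlated at 0.898 with each other. Diabetic replicate 2 correlated at 0.880 to 0.899 with the normal libraries and diabetic replicate 3 at 0.884 to 0.893. These values over all loci do not set diabetic replicate 1 apart.

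None of the 32 tested members differed between diabetic and normal epithelium past the threshold of an adjusted p under 0.05 and a fold over 1.2. Limma gave adjusted p-values of 0.953 to 0.999 for them and called 0.0259% of all loci tested. The count was also 0 with edgeR, which called 0.0141% of all loci, and with DESeq2, which called 0.233%. At an unadjusted p under 0.05 in limma 2 members were higher in diabetic libraries, *Fosl2* and *Cebpd*, where 2.44% of all loci were, and 0 were lower, where 2.35% of all loci were. EdgeR gave the same 2 members as higher (2.32% of all loci) and 0 as lower (1.82%). DESeq2 gave *Cebpd* alone as higher (2.92%) and 0 as lower (2.07%). The groups did not overlap in FPKM for *Fosl2* and *Cebpd*, which were higher, as 3.94% of all loci were, and for 0 members that were lower, where 5.72% of all loci were. The median log2 fold change was −0.15 over the members and −0.0049 over all loci, and 9 members had a positive and 23 a negative fold change.

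The members scattered widely between libraries of the same group. The median residual SD on the log2 scale was 0.394 over the members, 0.254 over all loci tested and 0.158 over protein-coding loci. It lay above the 90th percentile of all loci for 9 of the 32. The scatter was wider within the diabetic group, where the median SD was 0.512, than in the normal group, where it was 0.210. The diabetic SD was the larger one for 26 of the 32 members and for 56.0% of all loci.

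**Figure D1:**
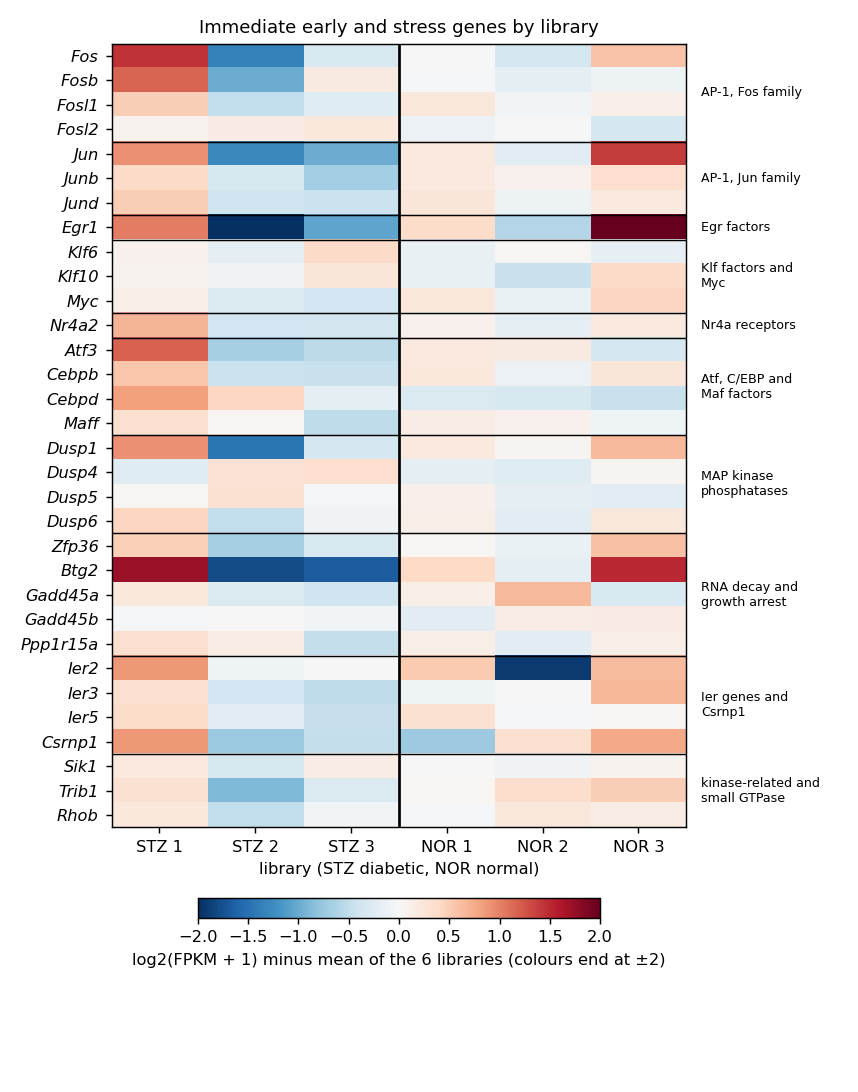
Level of each of the 32 tested members in each library, as quantile-normalized log2(FPKM + 1) minus the mean of the 6 libraries (red above, blue below), grouped by role. The column of diabetic replicate 1 (STZ 1) is mostly red and those of diabetic replicates 2 and 3 mostly blue, with mean deviations of 0.52, −0.49 and −0.31.

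The scatter had a shape, since the same diabetic library was high for most members and the other 2 were low. Diabetic replicate 1 had the highest FPKM of the 6 libraries for 20 of the 32 members, but for 14.1% of all loci tested. Diabetic replicate 2 was the lowest for 17 members, against 22.4% of all loci, and diabetic replicate 3 for 8, against 18.7%. The mean deviation of the members from their 6-library mean, on the quantile-normalized log2(FPKM + 1) scale, was 0.52, −0.49 and −0.31 in diabetic replicates 1, 2 and 3, against 0.063, −0.12 and 0.33 in normal replicates 1, 2 and 3. The normal libraries thus lay between the diabetic ones, with normal replicate 3 the highest of them. It was the highest of all 6 libraries for 7 members (21.9%), near its share of 20.8% over all loci.

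**Figure D2:**
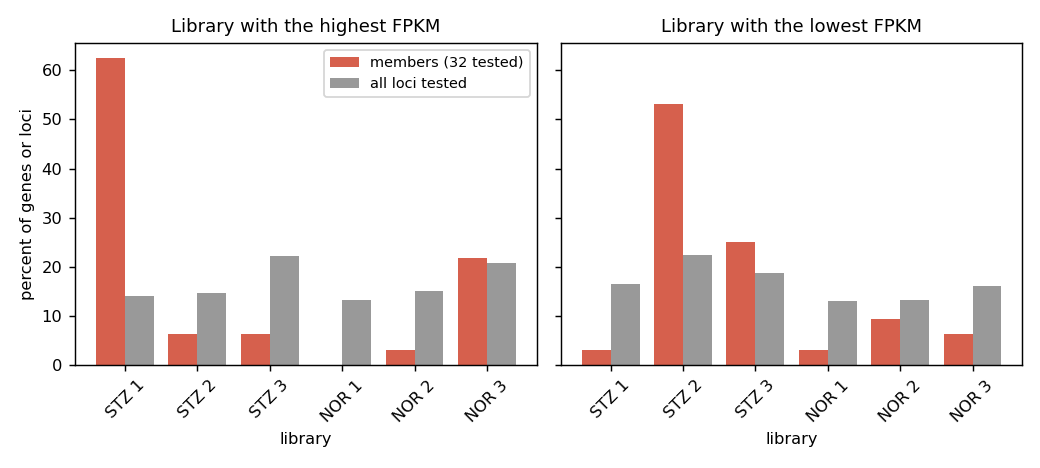
Percent of the 32 tested members (red) and of all 42551 loci tested (grey) for which each library (x axis) had the highest FPKM (left) or the lowest FPKM (right). Diabetic replicate 1 (STZ 1) was highest for 62.5% of the members and 14.1% of all loci, and diabetic replicate 2 was lowest for 53.1% and 22.4%.

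Set against the normal libraries, 22 members were above all 3 of them in diabetic replicate 1, where 21.4% of all loci were. In diabetic replicate 2, 23 members were below all 3 normal libraries (33.0% of all loci), and in diabetic replicate 3, 19 were (28.4%). For 11 members both held, with replicate 1 above and replicates 2 and 3 below every normal library, a pattern shown by 3.41% of all loci. These were *Atf3*, *Btg2*, *Cebpb*, *Dusp1*, *Fosl1*, *Ier5*, *Junb*, *Jund*, *Nr4a2*, *Rhob* and *Zfp36*.

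The Egr factors are zinc finger proteins that bind GC-rich promoters and pass the first wave on to later genes. *Egr1* (rn6, chromosome 18, 27657628 to 27661429) had 14.9, 0.459 and 2.82 FPKM in diabetic replicates 1 to 3, against 9.0, 4.17 and 45.7 FPKM in normal replicates 1 to 3. Diabetic replicate 2 was the lowest library and normal replicate 3 the highest, 99.5 times apart, and the groups overlapped. The log2 fold change was −1.60 (SE 1.01). *Egr2* and *Egr3* lay under the filter, with 42, 0 and 6 counts of *Egr2* in diabetic and 33, 23 and 21 in normal libraries.

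The Jun proteins pair with Fos proteins to form AP-1, which drives genes of growth, wound closure and matrix turnover. *Jun* (chromosome 5, 114011189 to 114014277) was at 37.7, 7.09 and 8.91 FPKM in diabetic and 22.4, 16.3 and 50.3 FPKM in normal libraries. Its fold change was −0.91 on the log2 scale (SE 0.62). *Junb*, the most abundant member, was at 114, 66.8 and 47.9 FPKM in diabetic and 97.3, 88.3 and 104 FPKM in normal libraries. Here the normal libraries lay close together and the diabetic ones lay on both sides of them, with a log2 fold change of −0.41 (SE 0.25). *Jund*, the Jun protein that is made also in resting cells, showed the same arrangement, and all 3 Jun genes were below every normal library in both diabetic replicates 2 and 3.

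The Fos family was not uniform. *Fosl2* (chromosome 6, 25598936 to 25617923), which codes for the AP-1 partner Fra-2, had 48.8, 51.0 and 48.4 FPKM in diabetic and 41.6, 45.4 and 34.7 FPKM in normal libraries. It did not share the split, since its 3 diabetic values lay close together and above all normal ones. A second row named *Fosl2*, just downstream on the same strand and with more counts, had 39.9, 41.5 and 42.5 FPKM in diabetic and 35.4, 40.4 and 33.6 FPKM in normal libraries, and there the groups overlapped. For the row used, the log2 fold change was 0.30 (SE 0.12, limma unadjusted p 0.035, adjusted p 0.953). *Fos* itself, chosen for the text after its values were seen, was at 22.5, 2.23 and 5.87 FPKM in diabetic and 7.35, 5.54 and 11.5 FPKM in normal libraries. Diabetic replicate 1 had 10.1 times the level of diabetic replicate 2. *Fosb* and *Fosl1* were also highest in diabetic replicate 1 and lowest in diabetic replicate 2, at 14.0 and 5.68 times the level of that library.

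**Figure D3:**
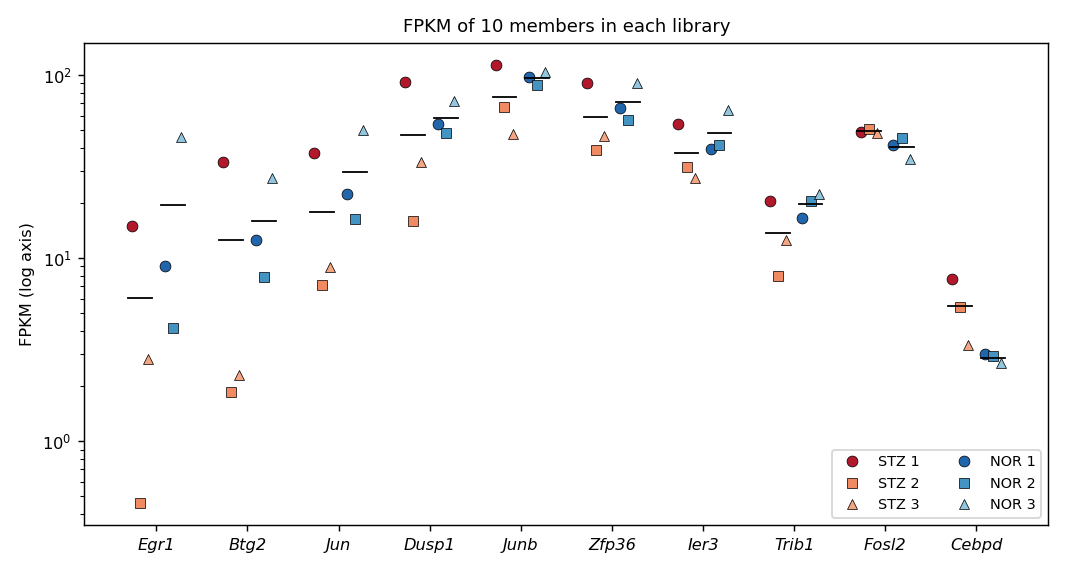
FPKM of 10 members in each library on a log axis, with diabetic libraries (STZ 1 to 3, red) left of normal ones (NOR 1 to 3, blue) and short lines at the group means. From *Egr1* to *Trib1*, STZ 1 lies above STZ 2 and STZ 3, while for *Fosl2* all 3 diabetic libraries lie at 48.4 to 51.0 FPKM.

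Among the Atf, C/EBP and Maf factors, leucine zipper proteins that respond to stress and cytokines, *Cebpd* was the member with the smallest p. *Cebpd* (chromosome 11, 89008008 to 89009146) had 7.73, 5.44 and 3.35 FPKM in diabetic and 2.99, 2.93 and 2.66 FPKM in normal libraries. The groups did not overlap, and the log2 fold change was 0.70 (SE 0.24, limma unadjusted p 0.021, adjusted p 0.953). All 4 members of this class were highest in diabetic replicate 1. *Atf3*, a repressor induced by many stresses and singled out after its values were seen, was at 3.44, 0.205 and 0.355 FPKM in diabetic and 1.25, 1.25 and 0.572 FPKM in normal libraries. *Maff*, a small Maf protein, was at 11.1, 8.80 and 5.88 FPKM in diabetic and 9.81, 9.26 and 8.17 FPKM in normal libraries. Its diabetic values lay on both sides of the normal ones, and its log2 fold change was −0.10 (SE 0.20).

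The Nr4a orphan receptors were low but for *Nr4a2*, which stood at 7.61, 3.01 and 3.23 FPKM in diabetic and 4.67, 3.68 and 5.21 FPKM in normal libraries. Its log2 fold change of −0.05 (SE 0.29) covered a high replicate 1 and low replicates 2 and 3, and it turned to 0.056 with edgeR. A locus with no strand overlaps *Nr4a2* and held 0.0778 times its counts. *Nr4a3* had 48, 0 and 0 counts in diabetic and 11, 8 and 0 counts in normal libraries.

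The Klf factors and *Myc* varied less. *Klf10*, a zinc finger repressor induced by TGF-beta, was at 8.93, 7.77 and 9.99 FPKM in diabetic and 7.51, 5.87 and 11.3 FPKM in normal libraries, so that the normal values enclosed the diabetic ones. *Myc*, the growth regulator, was at 3.56, 2.42 and 2.32 FPKM in diabetic and 3.95, 2.83 and 4.74 FPKM in normal libraries. Its log2 fold change was −0.35 (SE 0.20), and diabetic replicate 1 lay within the normal range. *Klf6* had group means of 7.88 ± 1.77 FPKM in diabetic and 6.80 ± 0.573 FPKM in normal libraries (SD, n = 3 each), with diabetic replicate 3 the highest library.

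The Dusp genes code for phosphatases that switch MAP kinases off. *Dusp1* (chromosome 10, 16970626 to 16973418) was at 92.1, 15.9 and 33.7 FPKM in diabetic and 54.3, 48.1 and 72.5 FPKM in normal libraries. The 3 normal values lay between diabetic replicate 1 and the other 2, and the log2 fold change was −0.60 (SE 0.52). *Dusp6*, the ERK phosphatase, was also highest in diabetic replicate 1 and lowest in diabetic replicate 2. *Dusp5*, whose promoter holds 2 adjoining CArG boxes, was not: its mean was 7.84 ± 1.02 FPKM in diabetic and 6.75 ± 0.982 FPKM in normal libraries, and its highest and lowest libraries were 1.46 times apart. *Dusp4* ran the other way, with 0.448 FPKM in diabetic replicate 1, the lowest of the 6, and 1.04 and 1.24 FPKM in diabetic replicates 2 and 3, against 0.520, 0.498 and 0.812 FPKM in normal libraries.

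Genes of RNA decay and growth arrest held the member with the widest split among the 11. *Btg2* (chromosome 13, 50913180 to 50916982), an antiproliferative factor that promotes removal of poly(A) tails, was at 33.7, 1.87 and 2.29 FPKM in diabetic and 12.6, 7.85 and 27.4 FPKM in normal libraries. Diabetic replicate 1 had 18.1 times the level of diabetic replicate 2, and the log2 fold change of −1.14 had an SE of 0.92. *Zfp36*, which codes for tristetraprolin and speeds the decay of AU-rich transcripts, was at 90.8, 39.0 and 46.2 FPKM in diabetic and 65.8, 56.7 and 90.6 FPKM in normal libraries. Its log2 fold change was −0.33 (SE 0.31). *Gadd45b*, a stress sensor that activates MAP kinase signalling, stayed level, with 4.80, 4.87 and 4.84 FPKM in the 3 diabetic libraries and 4.15, 5.64 and 5.81 FPKM in the normal ones. *Ppp1r15a*, the phosphatase subunit that restores translation after stress, averaged 10.5 ± 3.13 FPKM in diabetic and 10.5 ± 1.47 FPKM in normal libraries (SD, n = 3 each).

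*Ier3*, a survival factor of the early response, was at 54.0, 31.5 and 27.5 FPKM in diabetic and 39.3, 41.6 and 64.7 FPKM in normal libraries, with a log2 fold change of −0.38 (SE 0.27). *Ier2* is uncertain, since its only row is typed as a pseudogene and spans 21052 bases. It had 13.4, 6.24 and 6.76 FPKM in diabetic and 10.3, 1.09 and 11.4 FPKM in normal libraries, and its log2 fold change of 0.51 (SE 0.65) was −0.33 without normal replicate 2. *Csrnp1* is uncertain too, because a second row of that name overlaps it on the same strand with 1.51 times its counts. Both rows together held 49.2, 16.2 and 21.8 CPM in diabetic and 23.3, 32.8 and 48.2 CPM in normal libraries, with diabetic replicate 1 above and replicates 2 and 3 below all normal libraries.

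*Trib1*, a pseudokinase that steers the degradation of C/EBP proteins, was at 20.4, 8.0 and 12.5 FPKM in diabetic and 16.5, 20.5 and 22.5 FPKM in normal libraries. Only diabetic replicate 1 lay within the normal range, and the log2 fold change was −0.58 (SE 0.28). *Rhob*, a small GTPase with a short-lived transcript, was at 32.4, 18.5 and 24.8 FPKM in diabetic and 27, 31.7 and 29.6 FPKM in normal libraries, a log2 fold change of −0.22 (SE 0.18). *Sik1*, a kinase induced by cyclic AMP, averaged 16.4 ± 3.51 FPKM in diabetic and 16.2 ± 0.880 FPKM in normal libraries, and its row overlaps an antisense one with 0.00714 times its counts.

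The remaining tested members were *Cebpb*, *Ier5* and *Gadd45a*. *Cebpb* and *Ier5* followed the split, with diabetic replicate 1 at 7.65 and 26.3 FPKM, above all normal libraries. *Gadd45a*, a growth arrest gene induced by DNA damage, was highest in normal replicate 2 at 19.8 FPKM and lowest in diabetic replicate 3 at 8.85 FPKM. The 7 members under the filter were *Egr2*, *Egr3*, *Klf2*, *Nr4a1*, *Nr4a3*, *Gadd45g* and *Dusp2*, with means of 0.00436 to 0.393 FPKM and at most 162 counts in a library. Of these, 4 were highest in diabetic replicate 1, and *Dusp2* had 4 counts in normal replicate 2 and 0 elsewhere.

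Without diabetic replicate 1, 25 members had a negative and 7 a positive limma fold change, against 23 and 9 with all 6 libraries. Still no member passed the threshold. With the other 2 diabetic libraries against the 3 normal ones, 0 of 32 members passed in limma (adjusted p 0.401 to 0.952), which called 0.00705% of all loci, and 0 in edgeR (adjusted p 0.311 to 0.963), which called 0.0235%. The median log2 fold change was −0.45 over the members and −0.0083 over all loci. At an unadjusted p under 0.05 in limma, 14 members were lower in diabetic libraries, where 4.42% of all loci and 3.62% of protein-coding loci were, and 1 was higher (*Fosl2*), where 4.91% of all loci were. The 14 were *Jun*, *Junb*, *Jund*, *Egr1*, *Myc*, *Nr4a2*, *Cebpb*, *Dusp1*, *Zfp36*, *Btg2*, *Ier3*, *Ier5*, *Trib1* and *Rhob*. EdgeR gave 16 lower (4.33% of all loci), the same 14 with *Fosl1* and *Atf3*, and *Dusp4* as the 1 higher (4.75%). Both remaining diabetic libraries lay below all normal ones for 17 members, against 15.5% of all loci. The library left out was chosen after its values were seen, so these counts describe the other 5 libraries and do not test diabetes. Leaving out diabetic replicate 2 or 3 instead gave 0 members lower at that level in limma (1.78% and 2.2% of all loci). Leaving out normal replicate 1, 2 or 3 gave 0, 1 and 0 (2.11%, 2.08% and 2.34%), the 1 being *Myc*.

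The largest differences without that library were among members with wide scatter over all 6 libraries, but wide scatter did not always go with a large difference. *Ier2*, with a residual SD of 1.09 against 1.03 for *Jun*, was at a log2 fold change of 0.20 (SE 0.76). Without diabetic replicate 1 the log2 fold change was −2.51 (SE 0.94) for *Egr1*, −2.29 (SE 0.46) for *Btg2*, −1.59 (SE 0.45) for *Jun* and −1.20 (SE 0.34) for *Dusp1*. It was −0.71 (SE 0.15) for *Junb*, where both remaining libraries lay well below a narrow normal range. For *Fosl2* it was 0.34 (SE 0.13) and for *Cebpd* 0.46 (SE 0.20), so these 2 kept their sign.

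**Figure D4:**
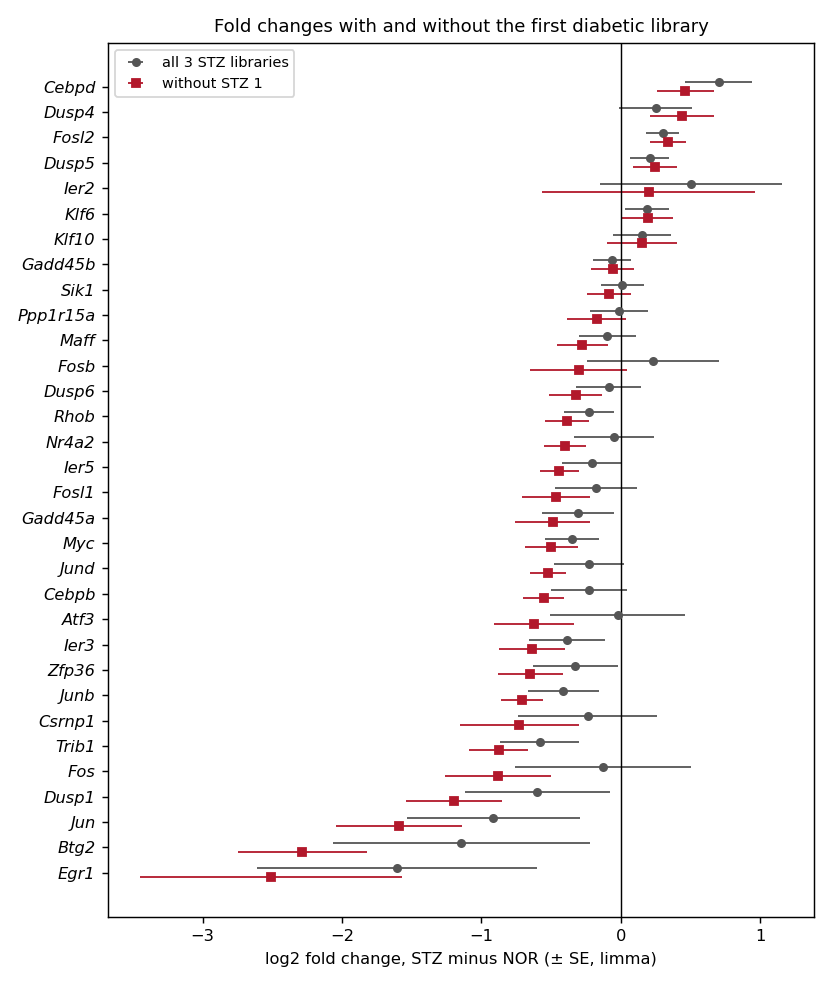
Log2 fold change of each tested member, diabetic minus normal, with its SE from limma, with all 3 diabetic libraries (grey circles) and without diabetic replicate 1 (red squares). The red values run from −2.51 for *Egr1* to 0.46 for *Cebpd*, and 25 of the 32 are below 0.

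Other rows with the names of members repeated the order of libraries. Of 9 such rows, 6 were highest in diabetic replicate 1 and 8 were lowest in diabetic replicate 2 or 3. A locus named *Fos* just downstream of the gene had 322, 0 and 6 counts in diabetic and 0, 22 and 46 counts in normal libraries. These rows lie in or beside the same genes and share their libraries, so they are not further evidence.

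Genes that act before, beside and after the members were read from lists, and 0 genes of any list passed with limma, edgeR or DESeq2. Other early response genes (27 tested) showed a smaller form of the same order, with mean deviations of 0.13, −0.11 and −0.17 in diabetic and 0.031, 0.031 and 0.090 in normal libraries, and diabetic replicate 1 was highest for 11 of them, against 14.1% of all loci. In limma 1 of the 27 was higher (2.44% of all loci) and 3 were lower (2.35%) at an unadjusted p under 0.05, and 7 were lower without diabetic replicate 1 (4.42%). *Plk2*, a kinase of the stress response, was lower in all diabetic libraries, at 19.9, 24.3 and 15.1 FPKM against 36.4, 27.2 and 35.1 FPKM in normal ones (log2 fold change −0.70, SE 0.18, limma adjusted p 0.953). *Id1*, an inhibitor of helix-loop-helix factors, was at 8.64, 13.6 and 9.98 FPKM in diabetic and 15.6, 15.7 and 16.2 FPKM in normal libraries (log2 fold change −0.52, SE 0.16). For neither was diabetic replicate 1 high.

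The mean deviations of the upstream lists spanned a narrower range over the libraries than that of the members. Genes of a list that move in opposite directions cancel in such a mean. SRF, its partners and CREB factors (8 tested) had mean deviations of −0.033 to 0.036 over the 6 libraries, with *Elk4* at a log2 fold change of −0.18 (SE 0.10) and *Elk3* at 0.19 (SE 0.12). The MAP kinase cascade (19 tested) was highest in diabetic replicate 1 for 0 genes, against 14.1% of all loci. Its smallest limma p-values belonged to *Map2k6* at 0.35 (SE 0.20) and *Mapk9* at 0.16 (SE 0.11). Transcript levels do not report the activity of these kinases. Of the EGF receptor ligands (6 tested), which bring the growth signal to the epithelium, *Ereg* was at 6.70, 5.84 and 6.91 FPKM in diabetic and 7.84, 10.2 and 9.76 FPKM in normal libraries, a log2 fold change of −0.44 (SE 0.13), and *Tgfa* was at 0.37 (SE 0.19). *Areg*, picked after its values were seen, was at 6.17, 2.46 and 1.29 FPKM in diabetic and 4.25, 3.67 and 5.35 FPKM in normal libraries. The ligands had mean deviations of 0.10, −0.15 and −0.10 in diabetic and −0.0067, 0.031 and 0.13 in normal libraries. Diabetic replicate 1 was highest for 2 of the 6 (14.1% of all loci). Without it, 2 were lower at an unadjusted limma p under 0.05 (4.42% of all loci) and 1 was higher (4.91%).

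**Figure D5:**
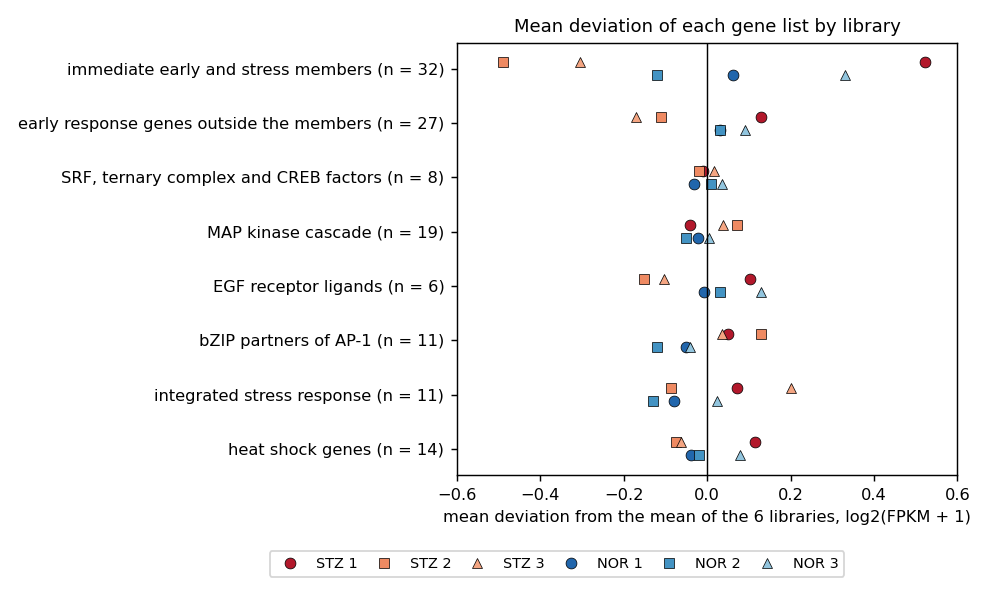
Mean deviation of the tested genes of each list from their 6-library mean, in units of log2(FPKM + 1), with 1 point per library (STZ red, NOR blue). The members spread from −0.49 to 0.52, other early response genes from −0.17 to 0.13, and SRF and CREB factors from −0.033 to 0.036.

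Among bZIP partners of AP-1 (11 tested), *Jdp2*, a repressor that pairs with Jun proteins, was at 10.5, 21.5 and 21.3 FPKM in diabetic and 12.3, 8.68 and 10.5 FPKM in normal libraries. It stood high in the diabetic libraries in which *Jun* stood low, but normal replicate 2 was the lowest normal library for both genes. The log2 fold change of *Jdp2* was 0.69 (SE 0.28, limma adjusted p 0.953), and *Bach1* was at 0.55 (SE 0.24). In the integrated stress response (11 tested), which slows translation under amino acid or unfolded protein stress, *Asns*, asparagine synthetase, was at 8.61, 7.25 and 16.8 FPKM in diabetic and 6.05, 4.62 and 5.19 FPKM in normal libraries. The groups did not overlap, and the log2 fold change was 0.87 (SE 0.28, limma adjusted p 0.953), while *Atf5* was at 0.29 (SE 0.31). Heat shock genes (14 tested) are induced by misfolded protein, and *Hspa1b*, an inducible Hsp70, was at 310.5, 209 and 206 FPKM in diabetic and 273, 161 and 318 FPKM in normal libraries. *Hspd1*, the mitochondrial chaperonin, was at 0.25 (SE 0.10) and *Bag3*, a cochaperone, at −0.39 (SE 0.16) on the log2 scale. The heat shock genes had mean deviations of 0.11, −0.074 and −0.063 in diabetic and −0.038, −0.019 and 0.080 in normal libraries. Diabetic replicate 1 was highest for 4 of the 14 (14.1% of all loci). In diabetic replicates 1 to 3 the mean deviations were 0.050, 0.13 and 0.034 for the bZIP partners. They were 0.072, −0.087 and 0.20 for the integrated stress response.

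Other quantities differed between the same libraries. Diabetic replicate 1 was the deepest library, at 87040253 counts, and diabetic replicates 2 and 3 the shallowest, at 62288901 and 64263130, while normal replicate 3 was the deepest normal one at 81139312. The summed lens markers did not follow the order, being highest in diabetic replicate 2 (1410 FPKM) and lowest in diabetic replicate 3 (3.62 FPKM), which were both low in the members. Macrophage markers (10 genes) summed to 26.8, 31.5 and 30.2 FPKM in diabetic and 26.1, 22.0 and 22.7 FPKM in normal libraries. Most of that sum was *Cd68*, whose locus is joined with *Mpdu1*, and the other 9 summed to 7.33, 10.7 and 14.6 FPKM in diabetic and 7.62, 5.49 and 5.87 FPKM in normal libraries. Of these *Cd14* was at 5.29, 7.66 and 11.95 FPKM in diabetic and 4.43, 1.94 and 3.58 FPKM in normal libraries, while *Csf1r* and *C1qc* had lower means in diabetic libraries (0.608 and 0.828 FPKM) than in normal ones (0.850 and 1.205 FPKM). The 7 keratocyte markers found summed to 761, 734 and 824 FPKM in diabetic and 1059, 1063 and 831 FPKM in normal libraries. The part of depth and of these cells in the scatter of the members was not tested.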

How the data were processed

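RNA of 6 corneal epithelium libraries, 3 diabetic and 3 normal, was read from per-library tables. Per the submitters' processing notes, reads were trimmed with cutadapt, checked with FastQC and aligned to rn6 with Bowtie2; versions, assembler, counter and strand setting were not named in the sources read here. The authors deposited raw counts and FPKM for each of 61453 loci. FPKM was set to 0 where the count was 0.

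FPKM was transformed as log2(FPKM + 1), quantile-normalized and tested with limma 3.58.1 (R 4.3.3, eBayes with trend) for 42551 loci, those whose mean reached 0.5 FPKM, with Benjamini-Hochberg adjustment over all of them. A locus passed at an adjusted p under 0.05 and a fold over 1.2. Fold changes are diabetic minus normal on this scale, which understates low genes. Counts were also tested with edgeR 4.0.16 (quasi-likelihood) and DESeq2 1.42.0. Scripts were tested on simulated data. Promoter sequences came from RefSeq (GRCr8), motifs by exact match.

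The members and gene lists were chosen with earlier results of these data known. Values in every library were given for members with an unadjusted limma p under 0.05 or groups that do not overlap, the most abundant member of each role class and the 10 members of largest fold change. Other members given in full were chosen after their values were seen, as were *Areg* and the heat shock and marker genes beyond the 2 of smallest p per list.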

Additional observations from a re-analysis of the deposited data

How the results depend on the processing

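The 32 members gave 0 calls under every alternative run, namely other normalizations, pseudocounts, filters, variance priors, tools, loci and libraries left out. Over all loci limma called 11. That count was 0 with voom, 6 with a pseudocount of 0.1, 3 with no filter, 6 with edgeR (6 with no filter), 99 with DESeq2, 3 among protein-coding loci and 3 to 10 with 1 library left out (edgeR 2 to 14). The numbers of the libraries did not pair them (same-number correlations −0.0092, 0.025 and 0.032), and with the replicate block 1 locus and 0 members passed.

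With 1 library left out the median log2 fold change of the members ran from −0.45 to −0.027 (edgeR −0.54 to 0.11), the number of positive fold changes from 7 to 15 (edgeR 6 to 20, with 19 without diabetic replicate 2, and 15 with no filter), members higher without overlap from 2 to 5 and members lower without overlap from 0 to 17. The 17 and the −0.45 were without diabetic replicate 1, the 5 without diabetic replicate 2, and the 15 without diabetic replicate 2 or normal replicate 3. Over all loci tested, 7.5% to 12.3% were higher without overlap with 1 library left out (7.64% without diabetic replicate 2), and 9.02% to 15.5% were lower (15.5% without diabetic replicate 1).

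The sign of *Nr4a2* turned with edgeR (0.056, or 0.059 with no filter) and DESeq2 (0.060). With 1 library left out, the log2 fold change ran from −0.40 to 0.13 for *Nr4a2* (edgeR −0.51 to 0.28), from −0.28 to 0.13 for *Maff* (edgeR −0.27 to 0.17), from −0.33 to 0.95 for *Ier2* (edgeR −0.27 to 0.64), from −0.037 to 0.38 for *Klf10* (edgeR −0.058 to 0.43), from −2.29 to −0.54 for *Btg2* (edgeR −2.91 to 0.32) and from −1.20 to −0.022 for *Dusp1* (edgeR −1.22 to 0.13). Values of edgeR with a turned sign were 0.20, 0.19 and 0.32 for *Btg2* (without diabetic replicate 2, diabetic replicate 3 or normal replicate 3), 0.13 for *Dusp1* (diabetic replicate 2), −0.19 and −0.27 for *Ier2* (diabetic replicate 1 or normal replicate 2), −0.058 for *Klf10* (normal replicate 2), 0.17 and 0.015 for *Maff* (diabetic replicate 3 or normal replicate 1), and 0.28, 0.27, 0.085 and 0.16 for *Nr4a2* (diabetic replicate 2, diabetic replicate 3, normal replicate 1 or normal replicate 3). *Btg2* was at −0.31 with edgeR, against −1.14 in limma, and the cause was not tested. Over the 32 members, the sign turned for 13 in limma with a library left out (*Fos*, *Fosb*, *Fosl1*, *Klf10*, *Nr4a2*, *Atf3*, *Maff*, *Dusp6*, *Gadd45b*, *Ppp1r15a*, *Ier2*, *Csrnp1* and *Sik1*) and for 4 with edgeR or DESeq2 (*Fos*, *Nr4a2*, *Atf3* and *Ppp1r15a*). *Fos* was at −0.13 in limma and 0.35 with edgeR, and *Atf3* at −0.02 and 0.40. The edgeR fits with a library left out or with no filter were added after seeing the data. With 3 libraries per group, the SE of the members, 0.117 to 1.01 on the log2 scale, limits what could be detected.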
